A study of Mus musculus with 15 samples.

Results

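The expression of 10 regulators of mitochondrial dynamics and biogenesis was followed in mouse haematopoietic stem cells (HSC). These are 10 named genes out of the 16154 genes with a row in the count table, and all 10 had a row. The list was made by function, not by a threshold on measured values, with earlier results of these data known. It holds the fusion genes Mfn1, Mfn2 and Opa1, the fission genes Dnm1l, Fis1 and Mff, the biogenesis regulators Nrf1 and Tfam, and the mitochondrial DNA (mtDNA) replication genes Polg and Twnk. Bone marrow HSC came from C57BL/6 mice, female by the labels, in 3 groups of 5 libraries, with each library made from a single mouse. Young mice were 6 to 12 weeks old and aged mice were 20 to 24 months old, and neither group was treated. The third group was mice of 20 to 24 months that drank water with nicotinamide riboside (NR), a precursor of NAD, at 3 mg/ml for 2 months. There was no NR-treated young group, so that the response to NR was measured in aged HSC alone.

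Mitochondria join and divide continuously. The mitofusins Mfn1 and Mfn2 tether and fuse outer membranes, Opa1 fuses inner membranes and shapes the cristae, and the dynamin-like GTPase encoded by Dnm1l is drawn to the outer membrane by receptors such as Mff and Fis1, where it constricts the organelle. Mitochondrial mass depends in turn on nuclear transcription factors such as Nrf1, which acts on many respiratory chain genes, and on the copying of mtDNA by the polymerase Polg behind the helicase Twinkle (Twnk), with Tfam packing the genome and starting its transcription. In HSC, Mfn2 has been linked to the upkeep of stem cells with lymphoid potential, and low mitochondrial activity is a known feature of quiescent HSC.

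The promoters shown here belong to the 4 members that passed the test between aged and young HSC. Each is 300 bases of the RefSeq sequence of build GRCm38.p6, 5′ to 3′ on the strand of the gene, from 250 bases before to 50 bases after an annotated start site. Capitals mark CCGGAAG or its reverse complement CTTCCGG, the core letters bound by GABP, a regulator of nuclear genes for mitochondrial proteins. The Mfn1 window lies at chr3:32529232-32529531 (+), the Dnm1l window at chr16:16358526-16358825 (−), the Fis1 window at chr5:136953025-136953324 (+) and the Twnk window at chr19:45006308-45006607 (+). The Dnm1l and Twnk windows belong to start sites inside the gene as GENCODE draws it, and the other window of each of these genes held no GABP letters.
Mfn1: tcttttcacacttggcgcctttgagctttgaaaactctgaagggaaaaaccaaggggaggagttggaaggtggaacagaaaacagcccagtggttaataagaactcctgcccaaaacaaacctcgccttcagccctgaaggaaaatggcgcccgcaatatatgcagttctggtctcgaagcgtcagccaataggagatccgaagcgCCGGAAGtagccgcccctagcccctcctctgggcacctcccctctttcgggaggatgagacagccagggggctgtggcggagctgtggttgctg
Dnm1l: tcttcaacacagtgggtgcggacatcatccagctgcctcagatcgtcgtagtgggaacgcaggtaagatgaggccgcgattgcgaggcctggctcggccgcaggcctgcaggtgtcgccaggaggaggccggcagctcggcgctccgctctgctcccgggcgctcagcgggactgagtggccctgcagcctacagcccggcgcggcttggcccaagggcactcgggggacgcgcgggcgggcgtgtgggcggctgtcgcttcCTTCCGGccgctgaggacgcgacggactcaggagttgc
Fis1: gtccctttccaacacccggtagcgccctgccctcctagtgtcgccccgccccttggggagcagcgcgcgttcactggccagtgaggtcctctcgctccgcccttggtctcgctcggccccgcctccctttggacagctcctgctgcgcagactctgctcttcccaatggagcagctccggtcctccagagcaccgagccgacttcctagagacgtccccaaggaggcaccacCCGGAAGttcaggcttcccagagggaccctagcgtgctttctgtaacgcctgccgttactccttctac
Twnk: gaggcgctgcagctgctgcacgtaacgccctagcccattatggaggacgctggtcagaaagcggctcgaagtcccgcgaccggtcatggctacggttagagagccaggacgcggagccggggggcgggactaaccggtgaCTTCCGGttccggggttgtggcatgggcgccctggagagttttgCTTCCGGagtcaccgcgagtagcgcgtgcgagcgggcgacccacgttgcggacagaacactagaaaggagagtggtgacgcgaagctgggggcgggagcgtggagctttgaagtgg
The GABP letters began 44 bases before the start site in Mfn1 and 18 bases before it in the Fis1 window shown. A second Fis1 window, not shown, held them from base 19 after its start site. In Dnm1l they began at base 12 after the start site, and in Twnk they occurred at 110 and at 66 bases before it, in each case on the opposite strand. Of the 10 members, 6 held these letters in at least 1 promoter window, namely Mfn1, Dnm1l, Fis1, Tfam, Polg and Twnk. Over all 27025 genes with a promoter in the RefSeq table the share was 9.93%, and over the 10319 of them measured here it was 19.5%. The core letters of the NRF1 site, GCGCATGC, occurred in 1 member (Opa1) and in 5.86% of measured genes, and the ERR letters AAGGTCA in 1 member (Twnk) and in 3.93%. Both strands were searched, matches of the NRF1 letters on either strand overlap each other, and a match of letters is a description and not a measured binding site. Such a match does not tell which factor binds there. The 6 promoters with GABP letters belonged to genes that moved in either direction or did not pass the test, as described next.

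The libraries differed in depth and in transcripts that mark other blood cells, although the study sorted cells as Lin- Sca-1+ cKit+ CD150+ CD48-. Total counts ran from 764119 (aged replicate 2) to 13318989, the median library holding 2685764 counts in the young, 6007460 in the aged and 3162434 in the NR-treated aged group. The summed level of 10 HSC markers overlapped between the groups, at 1379 to 1749 CPM (counts scaled to library size) in young, 1585 to 2005 in aged and 1477 to 1937 in NR-treated aged libraries. Of these 10 markers, however, 4 passed the test as higher in aged than in young HSC. With NR, 1 was lower than in aged HSC, and 3 were higher in NR-treated aged than in young HSC. The 25 measured markers of mature erythroid, granulocyte, monocyte, B and T cells, in contrast, summed to 8694 to 11298 CPM in aged libraries, 740 to 11118 in young and 474 to 1321 in NR-treated aged libraries. Of these 25 markers, 7 passed the test as higher in aged than in young HSC, 20 as lower in NR-treated aged than in aged HSC and 12 as lower in NR-treated aged than in young HSC. Over all genes, 9.68% passed as higher and 9.63% as lower with age, and 4.18% as lower with NR. Between NR-treated aged and young HSC, 4.47% passed in either direction, 413 of 16154 genes as higher and 309 as lower. The 4 markers of multipotent progenitors summed to 165 to 248 CPM in young, 89.5 to 122 in aged and 76.0 to 98.4 in NR-treated aged libraries, and 2, 1 and 3 of them were lower in these comparisons, in the same order. Young replicates 1 and 5 held 4 Y-linked transcripts at a sum of 99.7 and 105 CPM, against 0.73 to 3.00 CPM in the other 13 libraries, although all labels give female mice. Results between aged and young HSC are therefore also given without these libraries for the called members, and for the other genes of the pathway as a count of those called. Values that changed sign without them are given as well. The marker values and the separation of libraries include them.

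In all, 4 of the 10 members changed between young and aged HSC. Mfn1 fell with age, whereas Dnm1l, Fis1 and Twnk rose (quasi-likelihood test of edgeR, Benjamini-Hochberg adjusted p under 0.05 among all genes, a gene that passes being termed called). Called genes made up 19.3% of all genes in this comparison, 9.68% higher and 9.63% lower in aged HSC. With NR, 2 of the 10 members changed relative to untreated aged HSC, and they were also called with age: Mfn1 rose and Fis1 fell, against 8.07% of all genes called, 3.88% higher and 4.18% lower. None of the 10 members was called between NR-treated aged and young HSC, where 4.47% of all genes were. In that comparison 0 members had an unadjusted p under 0.05, and edgeR's likelihood ratio test, DESeq2 and limma-voom also called 0. The median log2 fold change of the 10 members was 0.06 with age, -0.05 with NR and -0.01 between NR-treated aged and young HSC, beside -0.03, 0.02 and -0.005 over all genes. The comparisons of aged with young and of NR-treated aged with aged HSC share the 5 aged libraries, so that they are not independent of each other.

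**Figure D1:**
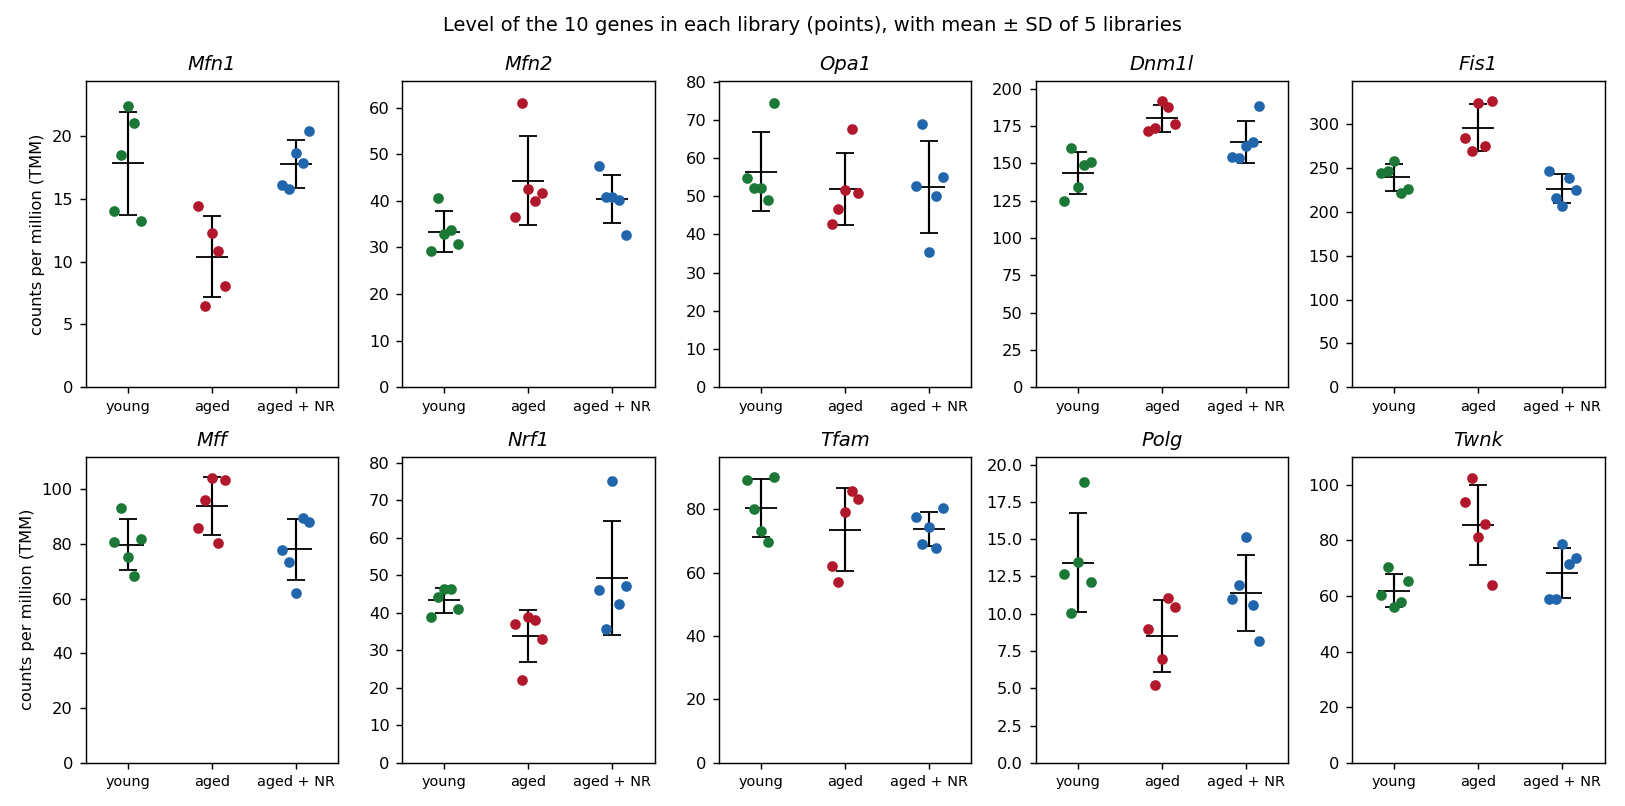
Level of each of the 10 genes in CPM (y axis, from 0, a scale per gene) in the 5 libraries of young, aged and NR-treated aged HSC (points), with the mean and SD as bars. The aged points of Fis1 and Dnm1l lie above all young points, and the aged points of Mfn1 lie below all NR-treated points.

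Of the 3 fusion genes, Mfn1 was called, lower in aged HSC and higher again with NR. Mfn1 (chr3:32529465-32579239, + strand, protein coding) was at 14.0, 18.5, 22.5, 21 and 13.2 CPM in young libraries, at 14.5, 6.49, 12.3, 10.8 and 8.03 CPM in aged libraries and at 16.1, 15.8, 18.7, 17.9 and 20.4 CPM in NR-treated aged libraries. Every aged library was below every NR-treated library, while aged replicate 1 lay above young replicates 1 and 5. The lowest value, in aged replicate 2, rested on 5 counts. Mfn1 was 1.61-fold lower in aged than in young HSC (log2 fold change -0.69 ± 0.21 SE, adjusted p = 0.025) and 1.61-fold higher in NR-treated aged than in aged HSC (0.69 ± 0.20, adjusted p = 0.043). NR-treated aged and young HSC, with means of 17.8 ± 1.91 and 17.8 ± 4.12 CPM (SD, n = 5), had a log2 fold change of 0.00 ± 0.20 (adjusted p = 0.997), with an error that spans both signs. Without young replicates 1 and 5 the fall with age was -0.90 on the log2 scale (adjusted p = 0.013). The value between NR-treated aged and young HSC was then -0.22, and with thinned counts it was -0.50, neither called. The call with age was lost without young replicate 3 (adjusted p = 0.062), young replicate 4 (0.069) or aged replicate 5 (0.072), and the call with NR was lost without aged replicate 2 (0.066), 3 (0.075), 4 (0.076) or 5 (0.116) or without NR-treated replicate 2 (0.056), 3 (0.088), 4 (0.083) or 5 (0.085).

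Mfn2 (chr4:147873599-147904704, − strand) did not pass the test in any comparison. It was at 29.1, 40.6, 32.8, 33.7 and 30.7 CPM in young, at 36.6, 61.0, 42.4, 40.0 and 41.6 CPM in aged and at 47.5, 40.8, 40.8, 40.2 and 32.7 CPM in NR-treated aged libraries. The aged group had a higher mean than the young, but young replicate 2 reached the aged range and aged replicate 2, the shallowest library, stood apart at the top. The log2 fold change was 0.37 ± 0.15 with age (adjusted p = 0.086), -0.09 ± 0.15 with NR (0.741) and 0.28 ± 0.15 between NR-treated aged and young HSC (0.339). It passed the test with age in 1 of the settings run, without young replicate 2 (adjusted p = 0.042). Opa1 (chr16:29579334-29654884, + strand) ranged from 49.0 to 74.4 CPM in young, 42.6 to 67.6 CPM in aged and 35.4 to 68.9 CPM in NR-treated aged libraries. Its 3 groups overlapped throughout, with log2 fold changes of -0.12 ± 0.17, 0.01 ± 0.17 and -0.11 ± 0.17 and adjusted p of 0.669, 0.982 and 0.791.

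**Figure D2:**
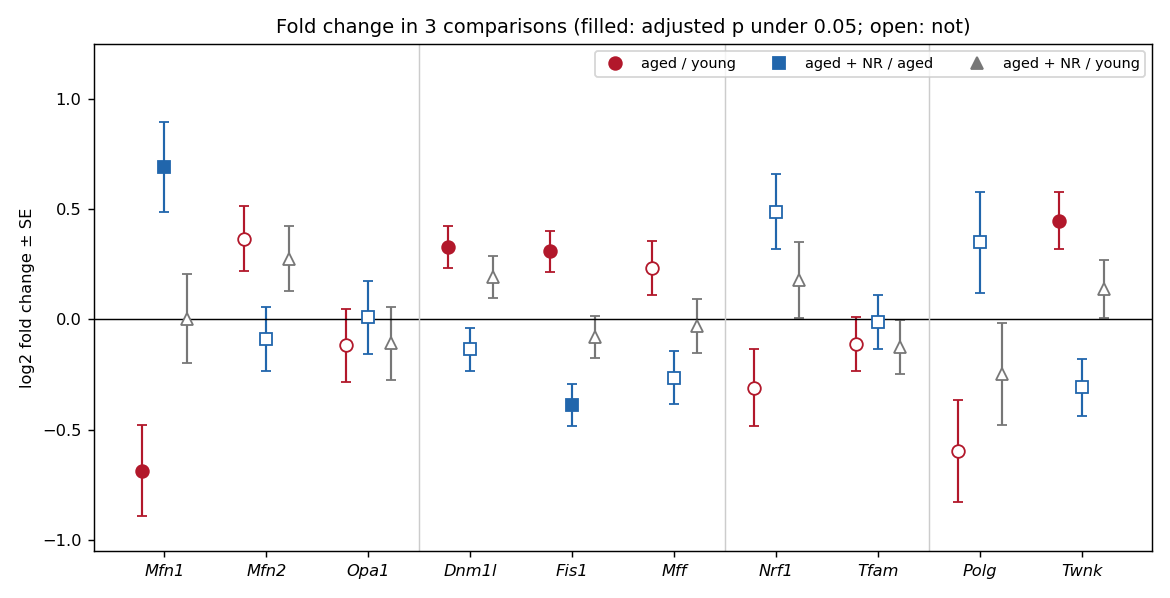
Log2 fold change ± SE (y axis) of the 10 genes, ordered by role, for aged over young, NR-treated aged over aged and NR-treated aged over young HSC. Filled symbols passed an adjusted p of 0.05: Mfn1, Dnm1l, Fis1 and Twnk with age, and Mfn1 and Fis1 with NR.

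Fis1 and Dnm1l, which act in fission, were higher in every aged library than in any young library. Fis1 (chr5:136953275-136966234, + strand) encodes a small outer membrane protein that binds fission factors. It was at 244.9, 246.8, 258.2, 221.7 and 226.0 CPM in young, at 284.4, 269.9, 324.0, 275.7 and 326.8 CPM in aged and at 246.3, 215.5, 207.3, 239.2 and 224.6 CPM in NR-treated aged libraries. The aged group overlapped neither of the others, and the NR-treated and young libraries overlapped. Fis1 was 1.24-fold higher with age (log2 fold change 0.31 ± 0.09, adjusted p = 0.026) and 1.31-fold lower with NR (-0.39 ± 0.09, adjusted p = 0.019), and the log2 fold change between NR-treated aged and young HSC was -0.08 ± 0.09 (adjusted p = 0.723). Without young replicates 1 and 5 the value with age was 0.29 (adjusted p = 0.112). The call with age was also lost without young replicate 4 (adjusted p = 0.066), young replicate 5 (0.066), aged replicate 3 (0.078) or aged replicate 5 (0.076), and the call with NR without aged replicate 3 (0.063), aged replicate 5 (0.055) or NR-treated replicate 3 (0.054).

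Dnm1l (chr16:16312230-16358959, − strand), the fission GTPase also known as Drp1, was at 124.9, 159.9, 133.8, 148.7 and 151.0 CPM in young, at 171.4, 173.9, 192.0, 187.7 and 176.1 CPM in aged and at 154.0, 153.2, 161.4, 164.4 and 188.2 CPM in NR-treated aged libraries. The mean of the NR-treated libraries lay between those of the other groups, with 4 of the 5 below all aged libraries and the fifth inside the aged range. Dnm1l was 1.26-fold higher in aged than in young HSC (log2 fold change 0.33 ± 0.10, adjusted p = 0.023). It did not pass the test with NR (-0.14 ± 0.10, adjusted p = 0.395) or between NR-treated aged and young HSC (0.19 ± 0.10, adjusted p = 0.306), so that it could be told neither from the aged nor from the young level. Without young replicates 1 and 5 the value with age was 0.29 (adjusted p = 0.109), and the call was lost without young replicate 1 (0.063) or aged replicate 3 (0.065). An antisense gene, Gm49521, shares 243 exon bases with Dnm1l. As the strand setting of the counts is not given, its part in the Dnm1l counts was not tested. Mff (chr1:82724890-82752394, + strand), an outer membrane receptor for the fission GTPase, was at 68.2 to 93.2 CPM in young, 80.4 to 104.1 CPM in aged and 62.2 to 89.5 CPM in NR-treated aged libraries. Its log2 fold changes of 0.23 ± 0.12 with age (adjusted p = 0.190) and -0.26 ± 0.12 with NR (adjusted p = 0.181) did not pass the test, and the groups overlapped. Mff shares 195 exon bases with the antisense gene C430014B12Rik, whose part in the Mff counts was not tested.

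Counts of 2 genes were next compared within each library, where their ratio does not depend on any scaling between libraries. The ratios were chosen after the values of the single genes were seen, and they carry no test. Counts of Fis1 per count of Mfn1 were 17.4, 13.3, 11.5, 10.5 and 17.1 in young, 19.7, 41.6, 26.4, 25.4 and 40.7 in aged and 15.3, 13.6, 11.1, 13.4 and 11.0 in NR-treated aged libraries. The aged libraries were thus above all others, with a mean of 30.8 ± 9.82 (SD, n = 5) against 14.0 ± 3.17 in young and 12.9 ± 1.83 in NR-treated aged HSC. Counts of Dnm1l per count of Mfn1 separated in the same way, at 5.96 to 11.4 in young, 11.9 to 26.8 in aged and 8.65 to 9.70 in NR-treated aged libraries. Counts of Mfn2, a fusion gene, per count of Mfn1 were 1.46 to 2.33 in young, 2.53 to 9.40 in aged and 1.6 to 2.95 in NR-treated aged libraries, so that in this ratio of 2 fusion genes the aged libraries were above all young libraries but overlapped the NR-treated ones. The highest aged value of each ratio, in aged replicate 2, rested on 5 counts of Mfn1. With Mfn2 in the place of Mfn1, the groups overlapped. Counts of Fis1 per count of Mfn2 were 6.08 to 8.41 in young, 4.43 to 7.86 in aged and 5.08 to 6.88 in NR-treated aged libraries, and counts of Dnm1l per count of Mfn2 were 3.94 to 4.91, 2.85 to 4.69 and 3.24 to 5.76. The higher ratios in aged libraries were thus seen over Mfn1 and not over Mfn2.

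**Figure D3:**
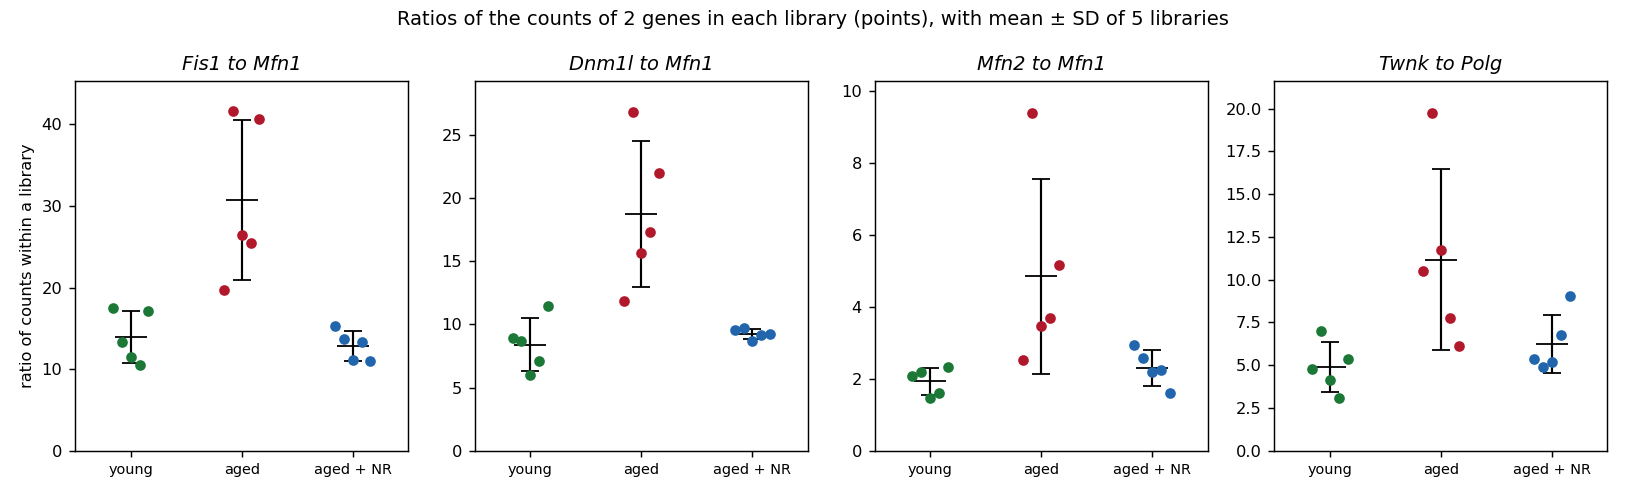
Ratio of the counts of 2 genes in each library (points, y axis from 0, a scale per ratio) of young, aged and NR-treated aged HSC, with the mean and SD of 5 libraries as bars. For Fis1 to Mfn1 and Dnm1l to Mfn1 the aged libraries sit above all young and all NR-treated libraries.

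Both biogenesis regulators stayed short of the threshold. Nrf1 (chr6:30047988-30153458, + strand), a transcription factor of nuclear genes for respiration, was at 39.0, 44.2, 46.3, 46.4 and 41.0 CPM in young, at 37.0, 22.1, 38.9, 38.0 and 33.1 CPM in aged and at 46.0, 35.8, 75.1, 42.4 and 47.1 CPM in NR-treated aged libraries. All aged libraries were below all young libraries, the nearest being 38.9 against 39.0 CPM. The log2 fold change was -0.31 ± 0.17 with age (adjusted p = 0.222) and 0.49 ± 0.17 with NR (adjusted p = 0.081). The difference with NR was called by DESeq2 (adjusted p = 0.046), when genes under 10 counts in any library were left out (0.042) and without NR-treated replicate 2 (0.049), whereas the value without NR-treated replicate 3, the highest library, was 0.29. Tfam (chr10:71225464-71238280, − strand) was at 69.7 to 90.3 CPM in young, 57.1 to 85.9 CPM in aged and 67.9 to 80.3 CPM in NR-treated aged libraries. Its log2 fold changes were -0.11 ± 0.12, -0.01 ± 0.12 and -0.12 ± 0.12, with adjusted p of 0.570, 0.966 and 0.658, and its groups overlapped.

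Of the mtDNA replication genes, Twnk rose with age and Polg did not pass the test. Twnk (chr19:45005663-45012762, + strand) was at 60.4, 70.3, 56.1, 57.7 and 65.3 CPM in young, at 93.9, 102.5, 81.2, 85.7 and 64.1 CPM in aged and at 59.0, 58.7, 78.6, 71.6 and 73.8 CPM in NR-treated aged libraries. All aged libraries but replicate 5 were above every other library, and aged replicate 5 lay within the young range. Twnk was 1.36-fold higher in aged HSC (log2 fold change 0.45 ± 0.13, adjusted p = 0.021), and its value with NR was -0.31 ± 0.13 (adjusted p = 0.139). Without young replicates 1 and 5 the value with age was 0.46 (adjusted p = 0.072), and the call was lost without young replicate 4 (0.052) or aged replicate 1 (0.051). Twnk shares 507 exon bases with Mrpl43 on the opposite strand. Whether reads were counted by strand is not given, and the part of Mrpl43 in the Twnk counts was not tested.

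Polg (chr7:79446231-79466362, − strand) was at 12.6, 10.0, 13.5, 18.9 and 12.1 CPM in young, at 8.96, 5.19, 6.93, 11.0 and 10.4 CPM in aged and at 11.0, 11.9, 15.2, 10.6 and 8.17 CPM in NR-treated aged libraries. The aged values were at the low end, with 4 counts in aged replicate 2, but they overlapped the young. The log2 fold change was -0.60 ± 0.23 with age (adjusted p = 0.074), 0.35 ± 0.23 with NR (adjusted p = 0.357) and -0.25 ± 0.23 between NR-treated aged and young HSC (adjusted p = 0.632). It was called with age by limma-voom (adjusted p = 0.046) and without young replicate 2 (0.046). At its 3′ end Polg shares 921 exon bases with Fanci on the opposite strand, and whether reads were counted by strand is not given in the sources used here, so that part of its counts could belong to Fanci. Counts of Twnk per count of Polg were 3.06 to 7.0 in young, 6.13 to 19.8 in aged and 4.93 to 9.03 in NR-treated aged libraries.

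By separation of the libraries, 3 of the 10 members (Dnm1l, Fis1 and Nrf1) did not overlap between aged and young HSC, where 12.4% of all genes did not overlap. Mfn1 and Fis1 did not overlap between NR-treated aged and aged HSC (8.60% of all genes), and no member was separated between NR-treated aged and young HSC (4.74% of all genes). Markers of mature blood cells moved with all 3 comparisons, with 7 of 25 higher in aged than in young HSC, and 20 and 12 of 25 lower in NR-treated aged than in aged and in young HSC. Of all genes, 9.68% were called higher with age and 4.18% lower with NR. Between NR-treated aged and young HSC 4.47% were called in either direction, with 309 of 16154 genes lower. In bulk RNA, a smaller share of HSC and less RNA per cell cannot be told apart. Young replicate 3 had a summed level of mature cell markers of 11118 CPM, inside the range of the aged libraries, but of another make-up. Its granulocyte markers summed to 5203 CPM against 1031 to 1660 in aged libraries, and its monocyte markers to 2526 against 683 to 1640. The erythroid markers were at 2590 CPM, below the 3123 to 6461 of aged libraries, and those of B cells at 758, within 594 to 4365. In young replicate 3, the Mfn1 level of 22.5 CPM was the highest of all 15 libraries. Its Fis1 level of 258.2 CPM was the highest of the young libraries and below all aged libraries. Dnm1l at 133.8 CPM and Twnk at 56.1 CPM, the lowest young value of Twnk, were also below all aged libraries. Without this library and aged replicate 2, Fis1 was called with age (adjusted p = 0.019) and with NR (0.014), and the other calls were lost, with Mfn1 at 0.090, Twnk at 0.079 and Dnm1l at 0.051 with age and Mfn1 at 0.057 with NR. The part of mature cells in these differences was not tested. With library totals in place of TMM, a scaling that moved the median log2 fold change of all genes to -0.16 with age and to 0.16 with NR, Fis1 with age was at 0.18 (adjusted p = 0.136), Dnm1l at 0.20 (0.112) and Twnk at 0.33 (0.094), and Fis1 with NR was at -0.25 (0.066), each in the direction given above but not called. Under that scaling the members called were Mfn1 and Polg with age, both lower, and Mfn1 and Nrf1 with NR, both higher. With counts thinned to the smallest library, Mfn1 was still called with age (-1.45, adjusted p = 0.006) and the other calls were lost (adjusted p of 0.064 to 0.149), and with a fit of the aged and young libraries alone Mfn1 was at an adjusted p of 0.052.

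**Figure D4:**
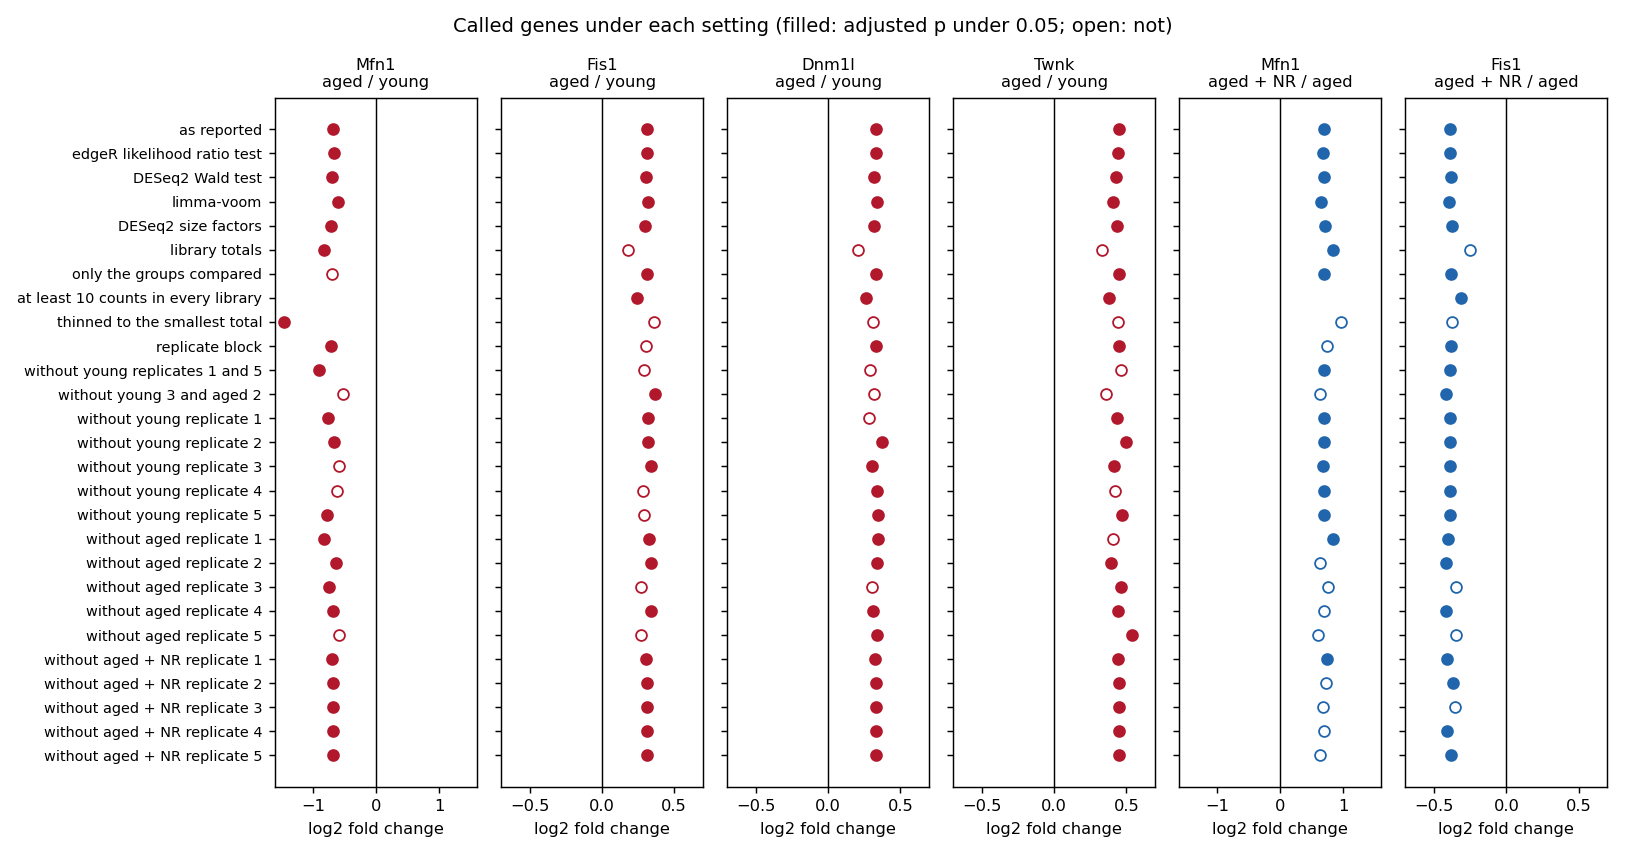
Log2 fold change (x axis) of the called members under each setting of the analysis (rows), for aged over young HSC (Mfn1, Fis1, Dnm1l, Twnk) and NR-treated aged over aged HSC (Mfn1, Fis1). All values keep their sign in the settings run, and open circles mark settings with an adjusted p of 0.05 or more; Mfn1 has no point where genes under 10 counts in any library were left out.

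The other genes of the pathway were read from lists set by function. Of 92 measured genes in the lists of dynamics, mtDNA maintenance, biogenesis and mitochondrial proteins, 19 (20.7%) were called between aged and young HSC, 10 higher and 9 lower, near the 19.3% of all genes. Among 28 further dynamics genes, 8 (28.6%) were called, 4 higher and 4 lower, and the list's median log2 fold change was 0.02. The 4 with the smallest p were Mtfr1l, a regulator of mitochondrial morphology (1.48-fold higher, adjusted p = 0.002), Pld6, a lipid enzyme of the outer membrane that favours fusion (2.14-fold lower, 0.011), Miga1, a mitoguardin that acts with it (1.67-fold lower, 0.012), and Inf2, a formin that primes fission at the endoplasmic reticulum (1.58-fold lower, 0.019). Mtfr1l was at 88.2 to 121.8 CPM in young, 139.2 to 175.5 CPM in aged and 104.2 to 135.3 CPM in NR-treated aged libraries, and it was called in each of the 15 fits with a library left out. Pld6 was at a low level, 6.83 to 17.9 CPM in young and 3.62 to 9.08 CPM in aged libraries, which overlapped. In aged replicate 2, Pld6 rested on 7 counts, Miga1 on 8 and Inf2 on 9. Genes known to favour fusion (Pld6, Miga1) and fission (Inf2) were thus both among those lower in aged HSC. Without young replicates 1 and 5, 2 of the 92 genes were called between aged and young HSC, Mtfr1l and Dguok.

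For mtDNA maintenance and expression, 4 of 29 genes (13.8%) were called with age, beside 19.3% of all genes. Dguok, the deoxyguanosine kinase that supplies nucleotides for mtDNA, was 1.42-fold higher (adjusted p = 0.006), and Slc25a36, a pyrimidine nucleotide carrier, was 1.43-fold higher (adjusted p = 0.009). The nuclease and helicase Dna2 was 1.61-fold lower (adjusted p = 0.027) and the matrix protease Lonp1 1.42-fold lower, at an adjusted p of 0.0498 and thus at the threshold. Dna2 rested on 8 counts in aged replicate 2 and Lonp1 on 11. Of the 15 fits with a library left out, Dna2 was called in 11 and Lonp1 in 3. The list's median log2 fold change was 0.22, with 20 of 29 genes above 0, and with library totals it was 0.08, with 16 of 29 above 0 and the median of all genes at -0.16. Among 17 measured biogenesis regulators, 4 (23.5%) were called, beside 19.3% of all genes. The oxidative stress factor Nfe2l2 was 1.33-fold higher (adjusted p = 0.021), and the transcription factor Yy1 (1.42-fold, 0.024), the deacetylase Sirt1 (1.55-fold, 0.036) and the corepressor Nrip1 (1.34-fold, 0.047) were lower. In the 15 fits with a library left out, Nfe2l2 was called in 14, Yy1 in 11, Sirt1 in 7 and Nrip1 in 5. Sirt1 rested on 6 counts in aged replicate 2. The median of this list was -0.25. Of the PGC-1 coactivators, Ppargc1a was at 2.11 to 6.2 CPM in young, 2.81 to 6.09 CPM in aged and 1.56 to 8.04 CPM in NR-treated aged libraries, and Ppargc1b was at 11.6 to 19.8, 12.9 to 33.7 and 15.2 to 23.0 CPM. Neither was called, with log2 fold changes with age of 0.33 ± 0.39 (adjusted p = 0.607) and 0.17 ± 0.23 (adjusted p = 0.658).

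Genes for abundant mitochondrial proteins formed the last list. With age, 3 of 18 (16.7%) were called, all higher, beside 19.3% of all genes called and 9.68% called higher. They were the cytochrome oxidase subunit Cox4i1 (1.28-fold, adjusted p = 0.031), the succinate dehydrogenase subunit Sdha (1.23-fold, 0.034) and the adenine nucleotide carrier Slc25a4 (1.22-fold, 0.041). In the 15 fits with a library left out, Cox4i1 and Sdha were called in 9 each and Slc25a4 in 7. Of the 18 genes, 14 had a log2 fold change above 0, with a median of 0.19. With library totals, 11 of the 18 were above 0 with age and the median was 0.06, against -0.16 for all genes. With NR, 17 of the 18 were below 0 with a median of -0.17, but 0 were called by edgeR's quasi-likelihood test, 4 had an unadjusted p under 0.05, and the likelihood ratio test and limma-voom called 0 and DESeq2 3. With library totals as scaling, 10 of the 18 were below 0 with NR and the list's median was -0.03, against 0.16 for all genes.

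In NR-treated aged against aged HSC, 3 of the 92 genes (3.26%) were called, beside 8.07% of all genes. The count was 9 with DESeq2, 6 with library totals, 5 each with the likelihood ratio test and limma-voom, and 0 with thinned counts. Mtfr1l was 1.36-fold lower (adjusted p = 0.021), Slc25a36 1.34-fold lower (0.047) and Inf2 1.54-fold higher (0.044), and each of the 3 was also called with age, in the other direction. Inf2 was at 26.8 to 50.3 CPM in young, 11.7 to 31.3 CPM in aged and 32.7 to 44.9 CPM in NR-treated aged libraries. Mtfr1l was called in 12, and Slc25a36 and Inf2 in 6 each, of the 15 fits with a library left out. Between NR-treated aged and young HSC, 1 of the 92 genes (1.09%) was called, Hcfc1, a transcriptional cofactor known to bind PGC-1 related coactivators, which was 1.41-fold lower in NR-treated aged HSC (adjusted p = 0.013), with libraries at 83.6 to 107.6 CPM against 125.3 to 147.5 CPM in young HSC.

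**Figure D5:**
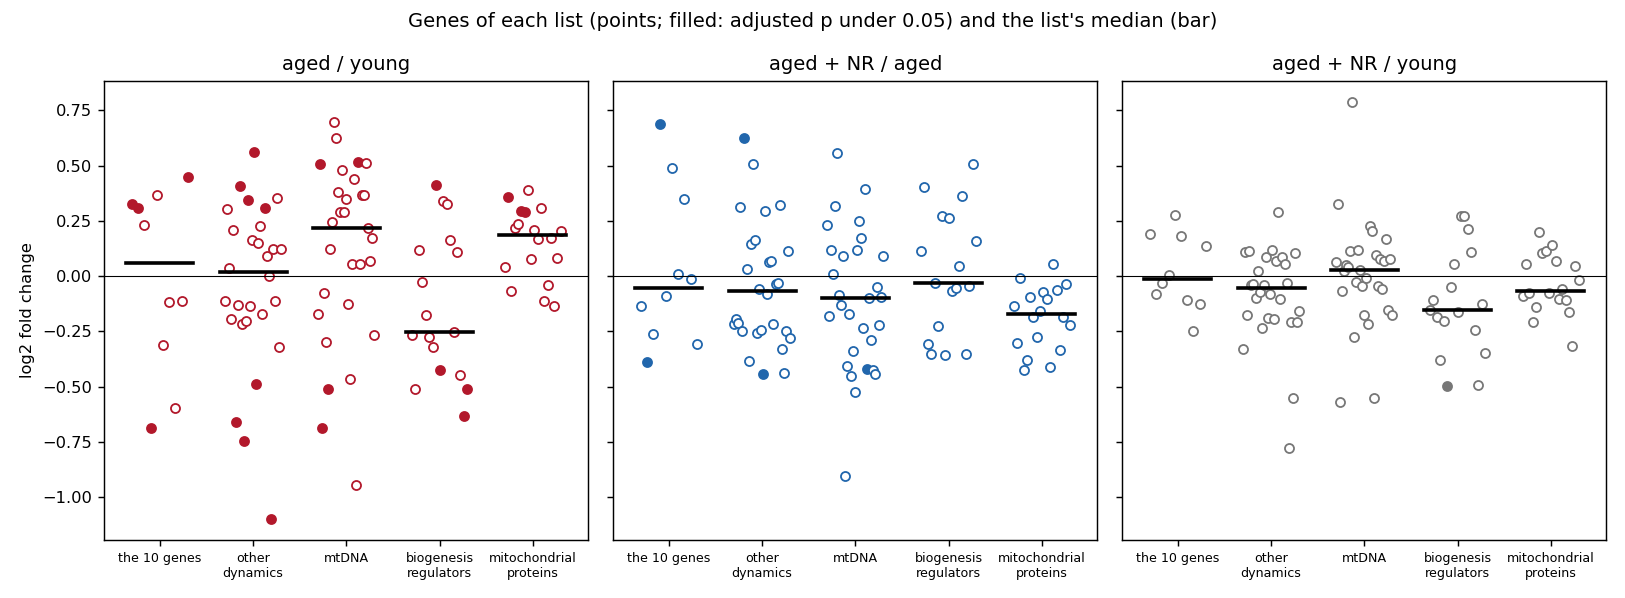
Log2 fold change (y axis) of the 10 genes and of the genes of 4 further lists (points, filled where the adjusted p was under 0.05) in 3 comparisons, with the median of each list as a bar. Called genes lie on both sides of 0 in the dynamics list with age, and 17 of the 18 mitochondrial protein genes lie below 0 with NR.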

How the data were processed

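RNA was sequenced from sorted HSC (Lin- Sca-1+ cKit+ CD150+ CD48-) in 3′ biased libraries with unique molecular identifiers (UMI), 1 library per mouse. The authors aligned reads to GRCm38 with STAR 2.4.2a, removed UMI duplicates, counted reads on GENCODE exons with featureCounts and deposited raw counts per gene (764119 to 13318989 per library), after removing genes of low count. A 3′ biased library reads the end of a transcript, so that isoforms are not resolved.

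From these counts, edgeR 4.0.16 in R 4.3.3 gave TMM-scaled CPM and log2 fold changes from 1 fit of all 15 libraries with group as its sole term. Significance came from the quasi-likelihood test, after Benjamini-Hochberg adjustment over 16154 genes, at a threshold of 0.05. Alternatives were edgeR's likelihood ratio test (the test of the study), DESeq2 1.42.0, limma-voom 3.58.1, DESeq2's size factors, library totals, only the groups compared, at least 10 counts in every library, counts thinned to 764119 per library, a replicate block, and libraries left out. Leaving out young replicate 3 and aged replicate 2 together was chosen after seeing the data.

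All members were named in every comparison, with Ppargc1a and Ppargc1b, up to 4 called genes of each other list with the smallest p, and the markers that touch a result. Members and lists were chosen with earlier results of these data known. None of the 13 mitochondrially encoded mRNAs had a row, and their planned share of counts is not analysed here. Positions are from GENCODE M21 (GRCm38), promoters from RefSeq, matched by symbol for 10 of 10 members. Tables were made with Python 3.11.15 and pandas 2.3.3.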

Additional observations from a re-analysis of the deposited data

Results flagged for a closer look

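In a group of 5 libraries, a library was marked when its gap to the nearest other library as a share of the range of the group was above Dixon's critical value. Chance marks about 1 in 20 groups, and 3 of the 30 groups of the 10 genes were marked. Mfn2 was at 61.0 CPM in aged replicate 2, the shallowest library, against 42.4 CPM in the next aged library. Opa1 was at 74.4 CPM in young replicate 5, which also held Y-linked transcripts, against 54.7 CPM in the next young library. Nrf1 was at 75.1 CPM in NR-treated aged replicate 3 against 47.1 CPM in the next library of its group. None of the 3 genes was called in the fit of all libraries.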

How the results depend on the processing

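Where a gene was called, its direction held in every setting run, but many calls were lost. The cause was not tested. Settings with libraries left out or counts thinned also held fewer samples or counts by construction. Of 746 refits of called genes, 512 stayed called and 234 did not. The members called with age (4 as reported) were 2 with library totals and 1 with thinned counts, without young replicates 1 and 5, or without young replicate 3 and aged replicate 2 together. With 1 library left out they were 1 (without young replicate 4) to 6 (without young replicate 2). The members called with NR (2 as reported) were 0 with thinned counts, 1 with the replicate block and 1 without young replicate 3 and aged replicate 2 together, and 0 to 2 with 1 library left out, with 0 without aged replicate 3, aged replicate 5 or NR-treated replicate 3. Between NR-treated aged and young HSC 0 members were called in each setting (0 to 0 with 1 library left out). Of the 92 other genes, those called with age (19) were 12 with only the groups compared, 12 with at least 10 counts in every library, 6 with thinned counts, 2 without young replicates 1 and 5, 7 without young replicate 3 and aged replicate 2 together, and 6 (without aged replicate 3) to 22 with 1 library left out. Those called with NR (3) were 5 with the likelihood ratio test, 9 with DESeq2, 5 with limma-voom, 6 with library totals, 0 with thinned counts, 1 without young replicates 1 and 5, and 0 (without aged replicate 3 or NR-treated replicate 3) to 4 with 1 library left out. Between NR-treated aged and young HSC (1) they were 0 with thinned counts and 1 to 3 with 1 library left out. The share of counts from mitochondrially encoded mRNAs was not run, as none had a row. Library totals turned the split of all calls with age from 1564 higher and 1556 lower to 1020 and 2485, and with NR from 627 and 676 to 1246 and 344. No pairing of the libraries by replicate number was seen across all genes, as the deviations of same-numbered libraries correlated at 0.002 on average and -0.27 at the lowest. Such an average cannot show a weak pairing. With the replicate block, 3 members were called with age and 1 with NR, and Fis1 with age (adjusted p = 0.056) and Mfn1 with NR (0.0501) were not called, and of the other genes 13 were called with age, 2 with NR and 1 between NR-treated aged and young HSC.

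Values that changed sign all belonged to genes that were not called. With age, without young replicates 1 and 5, the log2 fold change was 0.032 for Opa1, 0.0060 for Tfam and -0.035 for Ppargc1b, and with thinned counts it was 0.078 for Tfam and -0.45 for Ppargc1a. With NR, library totals gave 0.047 for Mfn2, 0.00014 for Dnm1l, 0.13 for Tfam and 0.093 for Ppargc1a, thinned counts gave 0.23 for Mfn2, 0.094 for Tfam and 0.37 for Ppargc1a, DESeq2's size factors gave 0.0014 and the count filter 0.060 for Tfam, the replicate block gave -0.014 for Opa1, and leaving out young replicate 3 and aged replicate 2 together gave 0.0053 for Mfn2 and -0.016 for Opa1. Between NR-treated aged and young HSC, thinned counts gave -0.50 for Mfn1, 0.035 for Opa1, 0.040 for Mff, 0.17 for Tfam and -0.089 for Ppargc1a, and without young replicates 1 and 5 Mfn1 was at -0.22 and Opa1 at 0.042. With 1 library left out, the ranges across 0 were -0.24 to 0.0062 for Opa1 and -0.00036 to 0.29 for Ppargc1b with age, -0.15 to 0.0085 for Mfn2, -0.11 to 0.13 for Opa1, -0.34 to 0.15 for Ppargc1a, -0.073 to 0.21 for Ppargc1b and -0.075 to 0.046 for Tfam with NR, and -0.082 to 0.039 for Mff, -0.092 to 0.096 for Mfn1, -0.016 to 0.28 for Nrf1, -0.23 to 0.016 for Opa1 and -0.011 to 0.57 for Ppargc1a between NR-treated aged and young HSC.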
